A study of Mus musculus with 3 samples.

Results

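The 9 CC chemokine genes described here, Ccl2, Ccl3, Ccl4, Ccl5, Ccl6, Ccl7, Ccl8, Ccl9 and Ccl11, were chosen by symbol among the 32285 genes counted in each of 3 single-cell RNA libraries, and all 9 were found in every library. The question put to the data was which cells of the mouse aortic intima held each ligand's RNA, with and without lipopolysaccharide (LPS, a bacterial cell wall component that activates the innate immune receptor Tlr4). In 1 library, mice had received 30 µg of ultrapure LPS intravenously 18 h before the tissue was taken. The other 2 libraries, control 1 and control 2, came from untreated mice. All mice were C57BL/6J wild type, 12 to 13 weeks old, of both sexes, and 5 to 10 animals were pooled per library. Cells were dislodged from the lesser curvature of the aortic arch after perfusion with actinomycin D, which blocks transcription, and a brief digestion with collagenase D and DNase I. With 1 LPS library, no p-value below measures the spread between LPS pools. Tests within a class rest on the 2 control libraries, with a spread estimated in part from other genes. Tests between classes rest on how the classes vary across those controls. Nothing in the labels says how far the 2 control libraries differ as animals rather than as preparations.

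Chemokines are small secreted proteins that guide leukocytes along a gradient by binding G-protein-coupled receptors. Among the ligands studied, Ccl2 and Ccl7 act on Ccr2 and call monocytes out of the bone marrow and blood. Ccl3, Ccl4 and Ccl5 attract monocytes, T cells and natural killer (NK) cells. Ccl11 (eotaxin) acts on Ccr3 of eosinophils, mouse Ccl8 acts on Ccr8, and Ccl6 and Ccl9 act on Ccr1. In an artery wall, endothelial and stromal ligands of this family are known for directing monocytes into the intima.

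All 9 genes lie on chromosome 11 in a pair of groups (GENCODE vM21 gene bounds, build GRCm38). The Ccl2 to Ccl8 group spans 81.228 kb and holds Ccl2 at chr11:82035571-82037453, Ccl7 at chr11:82045712-82047525, Ccl11 at chr11:82057823-82062955 and Ccl8 at chr11:82115185-82116799, all on the plus strand. The Ccl5 to Ccl4 group spans 138.905 kb and holds Ccl5 at chr11:83525778-83530518, Ccl9 at chr11:83572919-83578636, Ccl6 at chr11:83587882-83593087 and Ccl3 at chr11:83647844-83649355 on the minus strand, and Ccl4 at chr11:83662584-83664683 on the plus strand.

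The RefSeq promoter table for GRCm38.p6 matched 4 of the 9 genes: Ccl3, Ccl6, Ccl8 and Ccl9. Their 250 bases before the start are shown because Ccl8 was called higher with LPS in fibroblast-like cells while Ccl6 and Ccl9 did not pass the test in phagocyte-like cells. Capitals mark matches, on either strand, to a kappa B motif, to GAAANNGAA of interferon response elements, to TGANTCA of AP-1, to TTGCNNAA of CEBP, to TTCNNNGAA of STAT factors and to the TATA box TATAAA.
Ccl8 (chr11:82114935-82115184, plus strand): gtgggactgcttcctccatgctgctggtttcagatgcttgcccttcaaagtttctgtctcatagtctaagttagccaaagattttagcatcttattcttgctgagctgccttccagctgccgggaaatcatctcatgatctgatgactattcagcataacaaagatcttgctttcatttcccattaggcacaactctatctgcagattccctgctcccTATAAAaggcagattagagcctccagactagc
Ccl3 (chr11:83649379-83649628, minus strand): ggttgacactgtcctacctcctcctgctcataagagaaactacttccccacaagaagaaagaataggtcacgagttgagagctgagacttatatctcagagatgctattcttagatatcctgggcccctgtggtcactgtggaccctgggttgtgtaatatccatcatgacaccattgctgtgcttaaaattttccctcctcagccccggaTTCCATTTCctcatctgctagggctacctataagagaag
Ccl6 (chr11:83593088-83593337, minus strand): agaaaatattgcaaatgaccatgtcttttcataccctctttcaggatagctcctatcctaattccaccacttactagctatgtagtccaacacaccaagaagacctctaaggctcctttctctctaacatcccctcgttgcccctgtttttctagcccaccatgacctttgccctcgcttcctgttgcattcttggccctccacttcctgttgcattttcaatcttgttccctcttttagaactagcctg
Ccl9 (chr11:83578637-83578886, minus strand): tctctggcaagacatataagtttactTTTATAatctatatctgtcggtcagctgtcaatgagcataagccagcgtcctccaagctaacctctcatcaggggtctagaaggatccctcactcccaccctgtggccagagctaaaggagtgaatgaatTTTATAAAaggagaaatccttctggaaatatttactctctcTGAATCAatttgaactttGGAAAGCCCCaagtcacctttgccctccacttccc
Ccl8 held a TATA match from base -32 to -27, counted back from the start. Ccl9 held a kappa B match on the minus strand from -35 to -26, an AP-1 match from -53 to -47, and 3 TATA matches, of which those at -94 to -89 and -92 to -87 overlap. Ccl3 held an interferon response match on the minus strand from -39 to -31, and Ccl6 held none of the 6 motifs. Among 32851 promoters of the same length, a kappa B match stood in 7.25%, an interferon response match in 7.13%, an AP-1 match in 6.75%, a CEBP match in 9.56%, a STAT match in 7.02% and a TATA match in 12.4%. The longest run of bases that Ccl6 and Ccl9 shared was gccctccacttcc, 13 bases that begin at -55 in Ccl6 and at -14 in Ccl9. The other pairs shared runs of at most 9 bases, and identity over the aligned windows lay between 46.8% and 52.6% for all pairs. A match describes letters and does not show that a factor binds.

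The LPS library held 6000 barcodes and 21864072 UMIs (unique molecular identifiers, each counting 1 captured RNA molecule), control 1 held 1269 barcodes and 4940996 UMIs, and control 2 held 4813 barcodes and 20069697 UMIs. After filters, 5156 LPS barcodes, 429 control 1 barcodes and 2693 control 2 barcodes were kept, and 1 barcode sequence was kept in 2 libraries. The libraries stood apart in ways that touch every comparison: Gm42418, a transcript rich in ribosomal RNA, took 28.6% of LPS UMIs against 9.81% and 1.59% in the controls, and 3448 kept LPS barcodes against 6 and 1 formed a near-empty class led by it. Haemoglobin genes took 25.2% of LPS UMIs, against 44.0% and 7.91% in the controls. Barcodes were clustered without the 9 chemokines and named from marker genes. The endothelial-like class had 217 LPS barcodes against 62 and 128 control barcodes, the mononuclear phagocyte-like class 228 against 81 and 210, the fibroblast-like class 175 against 25 and 71, and the T, NK or innate lymphoid-like class 106 against 163 and 1683. Control barcodes of the lymphoid-like class looked mostly like immature lymphocytes, with a UMI of Rag1 or Dntt in 84.0% and 89.2%, against 54.7% with LPS. In these 4 classes, LPS and control barcodes lay mostly in different clusters, and the names rest on rebuilt clusters rather than on an annotation by the authors. No smooth muscle-like barcode was found in the LPS library, against 54 and 187 in the controls, so that class has no comparison.

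Levels below are UMIs of a gene scaled to the same total UMIs in every summed class (CPM), with exact Poisson intervals of 95% where given. These intervals cover counting error only. Tests within a class used edgeR's quasi-likelihood test on the summed counts per library, with 1 residual degree of freedom. Their p-values were adjusted by Benjamini-Hochberg over all genes tested in that class. A gene with UMIs in the LPS library alone passed the filter on low counts through that library, so the number of tested members called, and their median fold change, are descriptions that this filter shapes.

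**Figure D1:**
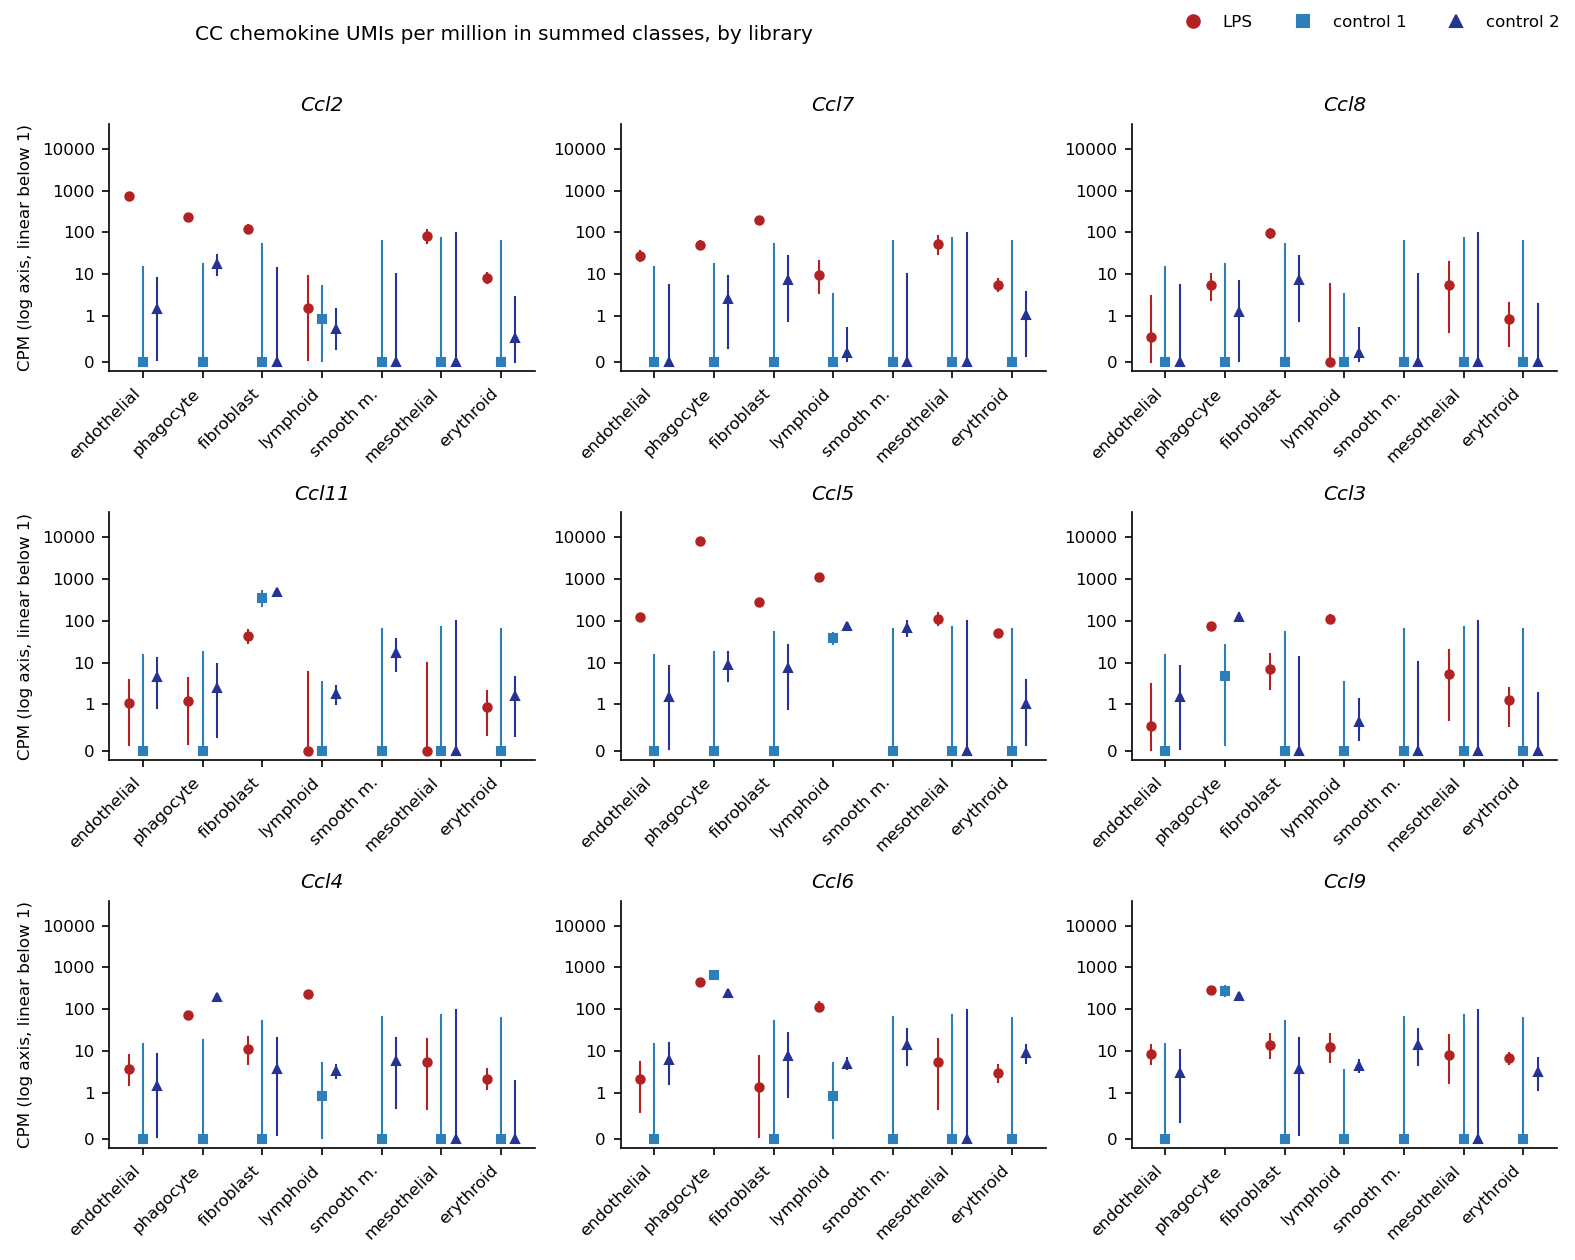
CPM of each chemokine (vertical axis, logarithmic above 1 CPM) in 7 summed classes, with 1 point per library (LPS, control 1, control 2) and exact Poisson 95% intervals as bars. Ccl5 stood at 8190 CPM in LPS phagocyte-like cells, and Ccl11 in fibroblast-like cells was lower with LPS, at 43.1 CPM against 345 and 486 CPM.

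Ccl2, a Ccr2 ligand, had its highest summed level in endothelial-like cells after LPS and was close to absent from them in the controls. It had 1353 UMIs in LPS endothelial-like cells, against 0 UMIs in control 1 and 1 UMI in control 2. Of those 1353 UMIs, 85.7% lay in 2 barcodes, so the rank of the class rests largely on them. The level was 729 CPM (690 to 769) with LPS, against at most 1.48 CPM in either control, so the libraries did not overlap. Relative to the summed controls the UMI ratio was 755, with a counting interval of 135 to 29840, and the fitted log2 fold change was 9.39 ± 0.73 (SE). By edgeR's quasi-likelihood test with Benjamini-Hochberg adjustment, adjusted p was 9.80e-35. Refitted without control 1 the log2 fold change was 8.73, and without control 2 it was 10.59 against 0 UMIs, both values without a test.

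Few endothelial-like barcodes carried that Ccl2. It was detected in 32 of 217 LPS barcodes (14.7%), against 5.42% of LPS erythroid-like barcodes, a class that should lack the gene and was deeper (median 8259 UMIs against 4342). After thinning each barcode to 1000 UMIs the shares were 5.07% in endothelial-like and 1.19% in erythroid-like barcodes. The 2 richest barcodes held 767 and 392 of the 1353 UMIs. The richest, with 28222 UMIs in all, held 118 UMIs of endothelial markers and 115 of fibroblast markers, and whether it held more than 1 cell was not tested. Without it 586 Ccl2 UMIs remained, or 320 CPM. When the barcode richest in each tested member was left out, a setting chosen after seeing the data, the Ccl2 log2 fold change was 8.11 and adjusted p was 3.15e-24 by edgeR's quasi-likelihood test. That setting kept the barcode with 392 Ccl2 UMIs. Neither the fold change nor the order of the classes was computed without both of the 2 richest barcodes.

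In mononuclear phagocyte-like cells, Ccl2 had 383 UMIs with LPS, against 0 UMIs in control 1 and 14 UMIs in control 2. These were 228 CPM with LPS against 0 and 17.5 CPM, a log2 fold change of 4.30 ± 0.62 (adjusted p = 8.70e-10, edgeR's quasi-likelihood test). With DESeq2 the log2 fold change was 4.81 but the call was lost (adjusted p = 0.998). The richest LPS barcode held 141 of the 383 UMIs, and without control 2 the fitted value was 8.73, against 0 UMIs. In fibroblast-like cells, Ccl2 had 88 UMIs (122 CPM) with LPS against 0 UMIs in both controls, which is at least 18.9-fold higher when the floor of 3 UMIs over the summed controls is used (adjusted p = 1.29e-09, edgeR's quasi-likelihood test). Mesothelial-like cells had 81.3 CPM with LPS against 0 CPM in both controls, with too few control barcodes for a test. LPS lymphoid-like cells had 1.58 CPM and LPS near-empty barcodes 39.8 CPM, so the near-empty class held more Ccl2 than the lymphoid-like class.

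Ccl7, the second Ccr2 ligand, had its highest level in fibroblast-like cells, where 146 UMIs were counted with LPS against 0 in control 1 and 2 in control 2. That was 203 CPM with LPS against 0 and 7.41 CPM, a log2 fold change of 5.47 ± 0.72 (adjusted p = 5.98e-12, edgeR's quasi-likelihood test). Phagocyte-like cells had 84 Ccl7 UMIs with LPS against 0 and 2 in the controls (4.71 ± 0.93, adjusted p = 2.90e-05 by the same edgeR test), but 1 barcode held 61 of the 84. Endothelial-like cells had 51 UMIs with LPS against 0 in both controls, at least 9.49-fold higher (adjusted p = 0.000585, edgeR), with 33 of the 51 in the barcode that was also richest in Ccl2. Without the richest barcodes Ccl7 fell under the filter on low counts in both of these classes and was not tested there. In fibroblast-like cells it stayed called, with a log2 fold change of 4.86.

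Ccl8, a Ccr8 ligand in the mouse, had 69 UMIs in LPS fibroblast-like cells, against 0 in control 1 and 2 in control 2. The level was 95.9 CPM with LPS against 0 and 7.41 CPM, and the log2 fold change was 4.39 ± 0.86 (adjusted p = 1.09e-05, edgeR's quasi-likelihood test). With free RNA subtracted it was 4.26 and the call was lost (adjusted p = 0.0705, edgeR). Fibroblast-like barcodes held 56.1% of all Ccl8 UMIs among kept LPS barcodes. It was detected in 12.6% of LPS fibroblast-like barcodes against 0.66% of LPS erythroid-like ones, or 3.43% against 0% after thinning. The other 3 tested classes had at most 9 UMIs each in the LPS library and were under the filter.

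Ccl11, the eosinophil attractant eotaxin, went the other way in the same fibroblast-like sums. It had 31 UMIs with LPS, against 24 in control 1 and 131 in control 2. These were 43.1 CPM (LPS) against 345 and 486 CPM (controls), with both controls above the LPS library. The log2 fold change was -2.87 ± 0.53 (adjusted p = 2.76e-06, edgeR's quasi-likelihood test), and it was -3.10 without control 1 and -2.79 without control 2. With free RNA subtracted it was -3.03 and the call was lost (adjusted p = 0.267, edgeR). Detection was 8.57% of barcodes with LPS against 36.0% and 39.4%, or 3.43% against 21.4% and 21.1% after thinning to 1000 UMIs. Of the 175 LPS barcodes, 143 lay in a cluster where Gm42418 took 45.76% of UMIs. In the clusters of control fibroblast-like barcodes it took 4.57%, 28.85% and 2.72%. Thinning to the same total does not level this share, and its part in the lower Ccl11 was not tested. Among LPS fibroblast-like barcodes, 27 of the 31 UMIs lay in a cluster of 32 barcodes, which also held 96 of the 146 Ccl7 UMIs and 57 of the 69 Ccl8 UMIs.

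Ccl5, which draws T cells and monocytes, was abundant in LPS phagocyte-like cells and close to absent from control ones. It had 13734 UMIs with LPS, against 0 in control 1 and 7 in control 2. The level was 8190 CPM (8053 to 8328) with LPS against 0 and 8.74 CPM, a log2 fold change of 10.41 ± 1.01 (adjusted p = 1.36e-21, edgeR's quasi-likelihood test). The fitted value was 9.98 without control 1 and 13.89 without control 2, against 0 UMIs. These barcodes held 75.0% of the Ccl5 UMIs of all kept LPS barcodes. Detection was 211 of 228 barcodes (92.5%, or 85.5% after thinning) with LPS, against 2.38% in control 2. In LPS erythroid-like barcodes, which should lack the gene, the share was 27.7% (4.76% after thinning). The near-empty class was not uniform: its largest cluster had a Ccl5 UMI in 620 of 1851 barcodes (244 CPM), while a cluster of 203 barcodes, led by Ccl5 with phagocyte genes such as Fcer1g and Fcgr3, had one in 158 (3099 CPM). That cluster scored highest for macrophage markers and was kept out of the phagocyte-like class by its Gm42418 share and marker score, thresholds set after seeing the data. It had no control barcodes. Unlike Ccl2, Ccl5 was spread over the class, with 62 barcodes needed for 80% of its UMIs.

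Ccl5 was also called higher in the other 3 classes. Endothelial-like cells had 227 UMIs with LPS against 0 and 1 (6.81 ± 0.76, adjusted p = 1.75e-16), and fibroblast-like cells had 205 with LPS against 0 and 2 (5.96 ± 0.70, adjusted p = 6.78e-15, both by edgeR's quasi-likelihood test). These were 122 and 285 CPM in LPS endothelial-like and fibroblast-like cells, beside the 244 CPM of the largest near-empty cluster and 49.7 CPM in erythroid-like barcodes. A UMI was found in 30.4% of endothelial-like and 36.6% of fibroblast-like barcodes with LPS, or 9.68% and 21.1% after thinning, beside the 4.76% of erythroid-like barcodes. The part of RNA free in the droplets in these low levels was not tested beyond the subtraction described at the end. Smooth muscle-like cells of control 2 had 24 Ccl5 UMIs (67.1 CPM) and those of control 1 had 0.

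In lymphoid-like cells, Ccl5 had 698 UMIs with LPS, against 41 in control 1 and 737 in control 2. The level was 1101 CPM with LPS against 38.0 and 74.9 CPM (log2 fold change 4.42 ± 0.48, adjusted p = 0.0324, edgeR's quasi-likelihood test). The call was lost with classes by a marker gate (adjusted p = 0.0695), with a mitochondrial limit of 30% (0.0736), with free RNA subtracted (0.491) and without the richest barcodes (0.216, all by edgeR). The make-up of the class differed alongside: 54.7% of LPS lymphoid-like barcodes held a UMI of Rag1 or Dntt, genes of receptor rearrangement in immature lymphocytes, against 84.0% and 89.2% in the controls. Barcodes with a UMI of Nkg7, a granule gene of NK and cytotoxic T cells, made up 17.0% of the LPS class, against 3.68% and 2.97%. They held 630 of the 698 LPS Ccl5 UMIs, all 41 of control 1 and 715 of 737 of control 2. Within the Nkg7-positive barcodes Ccl5 stood at 3574 CPM (3300 to 3864) with LPS, against 369 and 1116 CPM, and in the remaining barcodes at 149 CPM against 0 and 2.39 CPM. There were 18 such barcodes with LPS against 6 and 50, and in control 1 all 41 UMIs came from 1 barcode, so these levels carry no test.

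Ccl3 and Ccl4, which also attract T cells and monocytes, had no call in phagocyte-like cells, and there the controls themselves disagreed. Ccl3 had 128 UMIs with LPS, against 1 in control 1 and 101 in control 2, which is 76.3 CPM against 4.84 and 126 CPM. Ccl4 had 120 UMIs with LPS, against 0 and 153, which is 71.6 CPM against 0 and 191 CPM. The LPS library lay between the controls for both genes, and the log2 fold changes were 0.13 ± 0.54 for Ccl3 and -0.46 ± 0.56 for Ccl4 (adjusted p = 0.969 and 0.853, edgeR's quasi-likelihood test). In control 2, a macrophage-like cluster of 27 barcodes held 74 of the Ccl3 UMIs and 106 of the Ccl4 UMIs. Neutrophil-like barcodes of the LPS library had 236 CPM of Ccl3, with a UMI in 13 of 35 barcodes, and 74.2 CPM of Ccl4. The controls had 3 and 1 neutrophil-like barcodes with 0 UMIs of either gene.

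In lymphoid-like cells, Ccl3 had 71 UMIs with LPS against 0 and 6, Ccl4 had 145 with LPS against 1 and 32, and Ccl6 had 73 with LPS against 1 and 49. All were called (log2 fold changes 7.88 ± 0.54, 6.59 ± 0.46 and 5.09 ± 0.54; adjusted p = 0.0174, 0.0175 and 0.0324 by edgeR's quasi-likelihood test). Almost all of these UMIs came from very few barcodes: 1 barcode held 71 of the 71 Ccl3 UMIs, 70 of the 73 Ccl6 UMIs and 52 of the Ccl4 UMIs, and another held 68 of the Ccl4 UMIs. The first of them had 5865 UMIs, of which 10 were from neutrophil markers, 8 from monocyte markers, 6 from mast cell markers (4 of them Fcer1a) and 4 from lymphoid markers, so its place in the lymphoid-like class rests on few UMIs. Without the richest barcodes no member was called in the class: the log2 fold change was 2.63 for Ccl4 (adjusted p = 0.610) and 4.86 for Ccl5 (adjusted p = 0.216, edgeR's quasi-likelihood test), and Ccl3 and Ccl6 were not tested. Ccl9 had 8 UMIs with LPS against 0 and 43 and did not pass (2.38 ± 1.66, adjusted p = 0.566, edgeR).

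**Figure D2:**
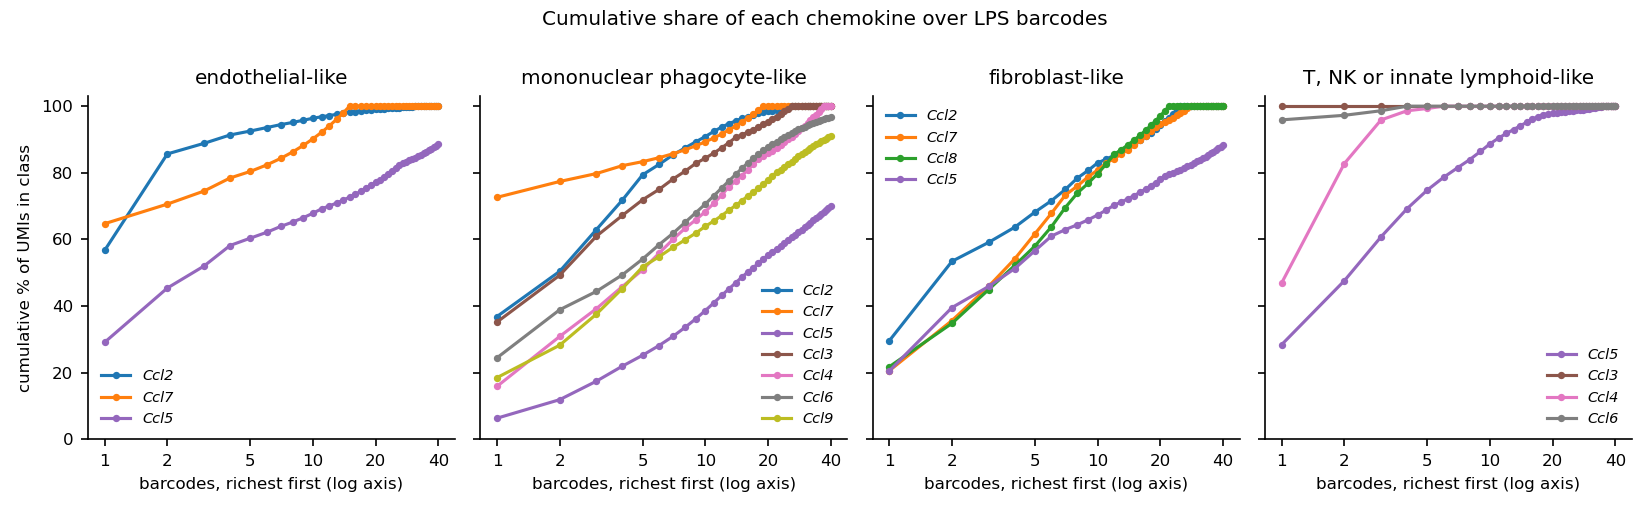
Cumulative percent of a chemokine's UMIs (vertical axis) over the barcodes of each LPS class, ordered from the richest barcode (horizontal axis, logarithmic, up to 40 barcodes). In endothelial-like cells 80% of Ccl2 UMIs lay in 2 barcodes, while 80% of Ccl5 UMIs in phagocyte-like cells took 62.

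Ccl6 and Ccl9, both ligands of Ccr1, were present in phagocyte-like cells of every library and did not pass the test. Ccl6 had 762 UMIs with LPS, against 134 in control 1 and 194 in control 2, which is 454 CPM against 649 and 242 CPM. Ccl9 had 493 UMIs with LPS, against 56 and 168, which is 294 CPM against 271 and 210 CPM. Their log2 fold changes were -0.01 ± 0.63 and 0.30 ± 0.59 (adjusted p = 0.998 and 0.928, edgeR's quasi-likelihood test), errors that leave room for changes of either sign. After LPS, 42 phagocyte-like barcodes held both genes, where 22.7 would if detection were independent, and deeper barcodes detect more of both. Neutrophil-like barcodes had 71.5 CPM of Ccl6 with LPS, against 4079 and 4409 CPM in the controls, which rest on 3 barcodes and 1 barcode.

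**Figure D3:**
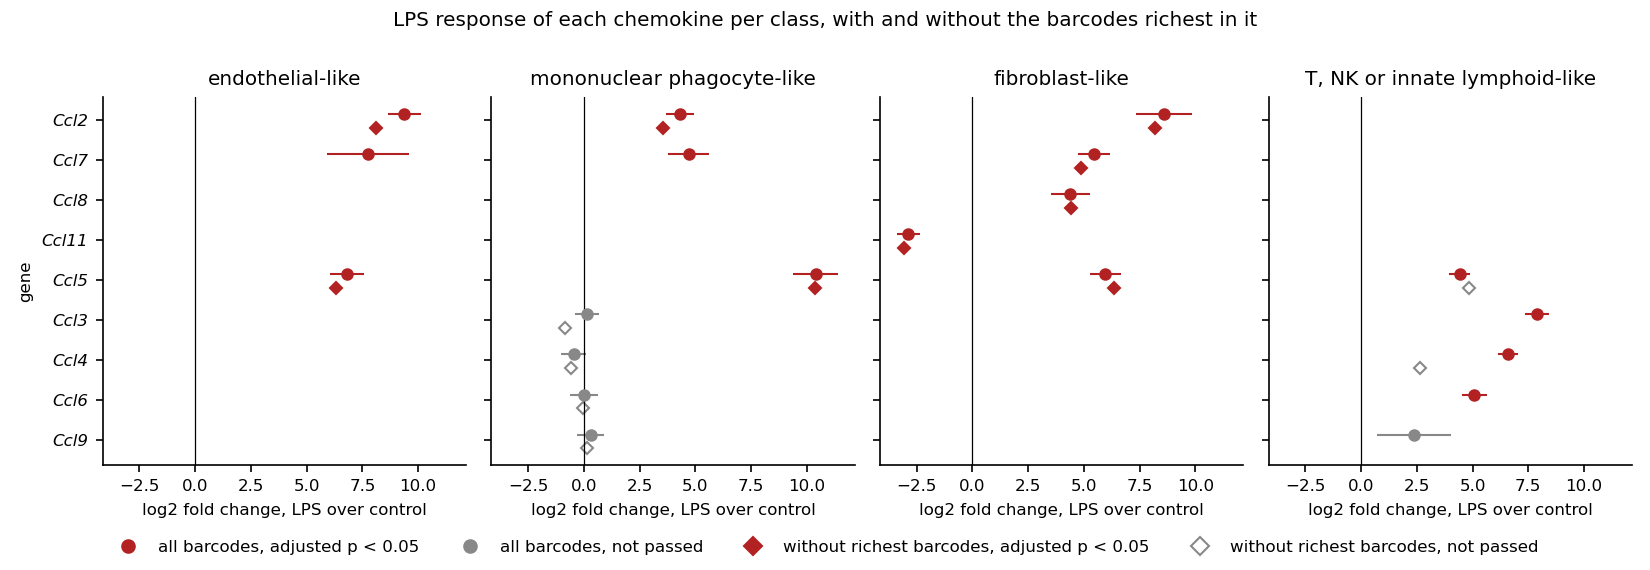
Log2 fold change, LPS over control, of each tested chemokine in 4 classes, as circles with SE bars, and as diamonds without the barcodes richest in each member. Filled red marks adjusted p under 0.05. Values for Ccl7 in endothelial-like and Ccl2 in fibroblast-like cells are fitted against 0 control UMIs. In lymphoid-like cells no diamond passed.

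Read against all genes tested, 3 of the 9 members were called higher with LPS in endothelial-like cells, where 6.76% of 8714 genes were, and the other 6 were under the filter. In phagocyte-like cells 3 of 7 tested members were called higher (3.69% of 8781 genes), and in fibroblast-like cells 4 of 5 were called higher (8.42% of 5343 genes) and 1 lower (5.15%). In lymphoid-like cells 4 of 5 were called higher (0.853% of 9725 genes). No median is given for endothelial-like or fibroblast-like cells, where most tested members passed the filter through the LPS library alone. The median log2 fold change of the 7 members tested in phagocyte-like cells was 0.30, against -0.04 over all genes tested there.

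The phagocyte-like class was made of clusters that differed in their chemokines. In the LPS library, the main macrophage-like cluster of 161 barcodes held 9118 Ccl5 UMIs (17618 CPM). A dendritic-like cluster of 7 barcodes, led by Ccl17, Fscn1, Ccl22 and the lymph node homing receptor Ccr7, had 14037 CPM of Ccl5 with 0 UMIs of Ccl6 and Ccl9. A macrophage-like cluster of 19 barcodes had Saa3, Cxcl13, Marco, Arg1 and the monocyte marker Ly6c2 among its leading genes. Ly6c2 was detected in 13 of these barcodes (1248 CPM) and the macrophage marker C1qa in 8. The cluster held 222 of the class's 383 Ccl2 UMIs (504 CPM) and 69 of 84 Ccl7 UMIs. It had 676 CPM of Ccl9 and 179 CPM of Ccl3. Few barcodes carried much of this: 1 held 141 Ccl2 UMIs, another 61 Ccl7 UMIs, and 1 more 45 of the cluster's 79 Ccl3 UMIs. The last 2 also held 82 and 165 UMIs of platelet markers, beside 586 and 276 of macrophage markers. A monocyte-like cluster of 18 barcodes held 143 Ccl2 UMIs (294 CPM) and 317 Ccl6 UMIs, and had 1566 CPM of Ccl5. Ccl2 and Ccl5 thus peaked in different LPS clusters. That monocyte-like cluster also had 7 and 5 barcodes in the controls, which held 105 and 45 Ccl6 UMIs and no Ccl5. These control barcodes differed in markers from the LPS ones. The class II gene H2-Aa stood at 4040 and 3591 CPM in them, against 288 CPM with LPS. The monocyte marker Ly6c2 stood at 227 and 180 CPM, against 2472 CPM with LPS. Whether they were the same kind of cell was not tested.

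**Figure D4:**
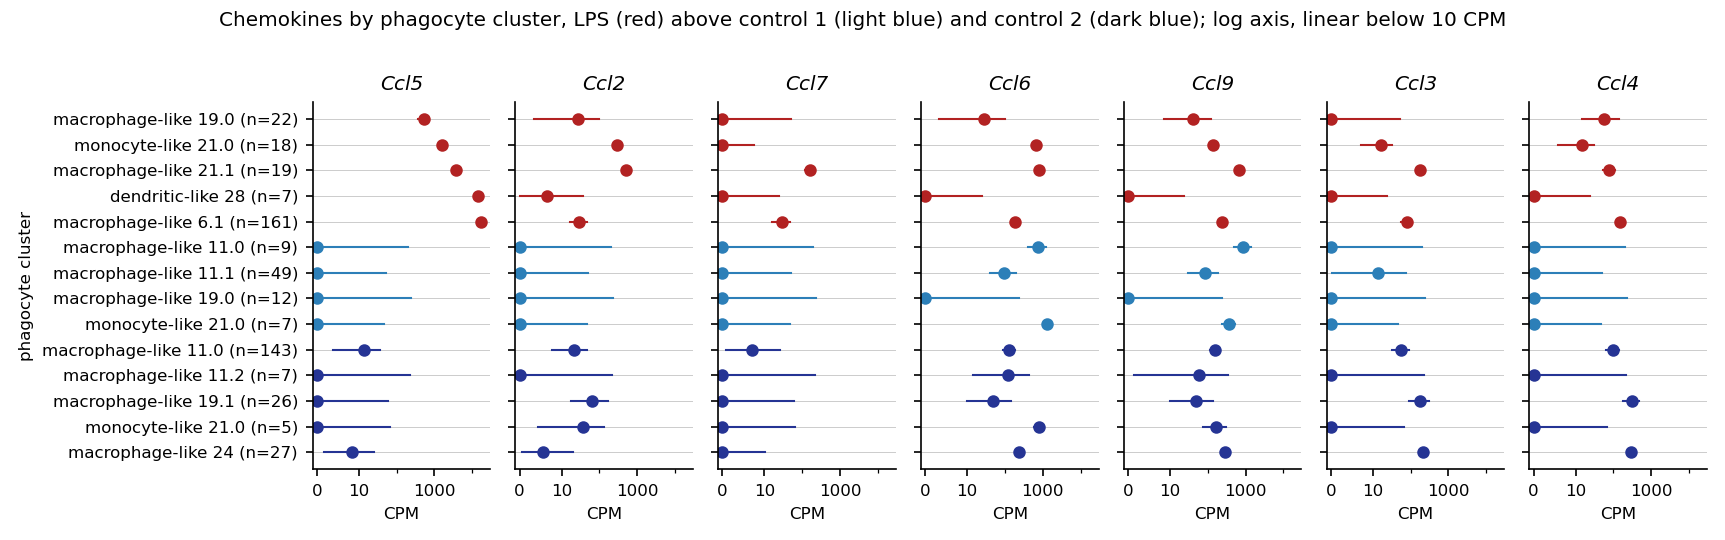
CPM of 7 chemokines (horizontal axes, logarithmic above 10 CPM) in each phagocyte cluster with at least 5 barcodes, of the LPS library (red), control 1 (light blue) and control 2 (dark blue), with exact Poisson 95% intervals and the number of barcodes in brackets. Every LPS cluster plotted lay above every control cluster plotted for Ccl5, from 526 CPM upward, while Ccl6 and Ccl9 overlapped between the libraries.

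Resident arterial macrophages are known for Lyve1 and Folr2. Phagocyte-like barcodes that passed a gate on Lyve1, Folr2, Timd4, Cd163 and F13a1 numbered 54 with LPS, against 6 and 19 in the controls, under the 20 that a test needed. In the LPS library the gate rested mostly on F13a1, with 240 UMIs. Timd4 had 85, Folr2 40, Cd163 31 and Lyve1 24. Of the Lyve1 UMIs, 18 lay in the main macrophage-like cluster, which had 29.0 CPM of Ccl2. The clusters of 19 and 18 barcodes, richer in Ccl2, held 5 and 1. The gate therefore does not mark Lyve1 macrophages alone. With LPS, barcodes inside the gate had 419 CPM of Ccl2 against 19.95 CPM outside it, 743 against 140 CPM of Ccl6 and 441 against 133 CPM of Ccl9. Ccl5 ran the other way, at 2423 CPM inside against 14482 CPM outside. Depth differed too, with a median of 6365 UMIs inside and 2363 outside. The endothelial-like class was uneven too: a cluster of 54 LPS barcodes with a median of 16980 UMIs held 1261 of the 1353 Ccl2 UMIs, while a cluster of 60 held 1. In the cluster of 54, 16 barcodes had a Ccl2 UMI, and 2 of them held 767 and 392 of the 1261. Lyve1, which lymphatic and some other endothelial cells also express, was itself called higher in the endothelial-like class, with 471 UMIs with LPS against 3 and 1 (log2 fold change 5.92 ± 0.62, edgeR's quasi-likelihood test), and those 2 clusters held 317 and 134 of its LPS UMIs. Its part in the Ccl2 result was not tested.

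Differences between classes were tested in a joint model over 12 sums (4 classes in 3 libraries) and 11707 genes, each class against the mean of the other 3. In the LPS library, 13 differences of members were called higher in a class. Endothelial-like cells were higher for Ccl2 by 4.18 ± 0.49 on the log2 scale (9.06% of genes were called higher there). Phagocyte-like cells were higher for Ccl2, Ccl3, Ccl4, Ccl5, Ccl6 and Ccl9, by 1.87 (Ccl4) to 6.11 (Ccl6), with 4.73 for Ccl5 (12.3% of genes). Fibroblast-like cells were higher for Ccl7 (3.30), Ccl8 (7.42) and Ccl11 (6.67), where 7.35% of genes were. Lymphoid-like cells were higher for Ccl3 (3.85), Ccl4 (3.81) and Ccl6 (3.17), where 10.0% of genes were, and these 3 differences turned negative without the richest barcodes (-6.25, -0.69 and -1.26).

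In the controls, 7 differences were called higher. Phagocyte-like cells were higher for Ccl2 (5.08), Ccl3 (8.12), Ccl4 (6.15), Ccl6 (6.63) and Ccl9 (6.69), where 11.1% of genes were called higher. Fibroblast-like cells were higher for Ccl11 (7.74) and lymphoid-like cells for Ccl5 (4.30), where 7.37% and 21.2% of genes were. Endothelial-like cells had no member called higher by edgeR, and 0 at an unadjusted p under 0.05, where 11.9% of genes were called. Ccl5 was thus called higher in phagocyte-like cells of the LPS library and in lymphoid-like cells of the controls, while Ccl11 was highest in fibroblast-like cells of both. The Ccl2 and Ccl4 values of phagocyte-like cells rested on control 2, and without it both were -0.43. The Ccl3 value also came mostly from control 2, with 101 phagocyte-like UMIs there against 1 in control 1.

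Whether the LPS response differed between classes was tested as an interaction. Ccl2 responded more in endothelial-like than in phagocyte-like cells, by 5.07 on the log2 scale (adjusted p = 0.0187, edgeR's quasi-likelihood test in the joint model, where 0.504% of genes were called in either direction). It did so against lymphoid-like cells too, by 8.18 (adjusted p = 0.000721, edgeR), a comparison in which Ccl6 was also called (-5.65) and 0.905% of genes were. Ccl5 responded more in phagocyte-like than in lymphoid-like cells, by 6.41 (adjusted p = 2.52e-07, edgeR), where 0.854% of genes were called. Ccl3, Ccl4 and Ccl6 were called in the opposite direction there (-7.94, -7.21 and -4.57), and the 2 lymphoid-like barcodes named above held most of the LPS UMIs of these 3 genes in that class. The lymphoid-like class also differed in make-up between LPS and control libraries, with fewer Rag1 or Dntt barcodes after LPS. The part of that difference in the interactions with lymphoid-like cells was not tested. By edgeR no member was called between endothelial-like and fibroblast-like cells (0.154% of genes), phagocyte-like and fibroblast-like cells (0.333%) or fibroblast-like and lymphoid-like cells (0.196%), with 0, 4 and 2 members at an unadjusted p under 0.05. Without the richest barcodes, 2 of the 7 interactions remained called, Ccl2 between endothelial-like and lymphoid-like cells (11.32, adjusted p = 0.00355, edgeR) and Ccl5 between phagocyte-like and lymphoid-like cells (6.13). The Ccl2 difference between endothelial-like and phagocyte-like cells was then 4.53 (adjusted p = 0.0728, edgeR). Over all tested alternatives that difference passed in 3 of 7. The Ccl2 difference from lymphoid-like cells passed in 5 of 7, and that of Ccl5 in 6 of 7.

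Other CC ligands were measured beside the 9. In phagocyte-like cells 3 of 4 tested were called higher with LPS, where 3.69% of all genes tested were. Ccl12, a further Ccr2 ligand of the mouse, had 293 UMIs with LPS against 2 and 18 (3.33 ± 0.59). Ccl17 and Ccl22, both Ccr4 ligands, had 767 and 540 UMIs with LPS against 0 in both controls. These 2 passed the filter through the LPS library alone. They were among the leading genes of the dendritic-like cluster of 7 LPS barcodes, which had no control barcodes. In fibroblast-like cells, where 8.42% of genes were called higher, the 1 tested was called. This was Ccl19, a Ccr7 ligand, with 472 UMIs with LPS against 8 and 21 (3.28 ± 0.49). None of 1 tested in endothelial-like cells and none of 2 in lymphoid-like cells passed, at an unadjusted p under 0.05 either (edgeR). Of the receptors, 1 of 4 tested in phagocyte-like cells was called, the receptor relative Ccrl2 (1.78 ± 0.57). None of 1, 1 and 2 tested in endothelial-like, fibroblast-like and lymphoid-like cells was called (0, 0 and 2 at an unadjusted p under 0.05, edgeR).

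Of 16 transcription factors known to act on CC chemokine genes, 3 of 13 tested were called higher in endothelial-like, 3 of 16 in phagocyte-like, 4 of 12 in fibroblast-like and 6 of 14 in lymphoid-like cells, and none lower. Over all genes tested, the shares called higher in these classes were 6.76%, 3.69%, 8.42% and 0.853%, which also stand beside the list that follows. Irf7, an amplifier of interferon responses, and Cebpb, a factor of acute inflammation, were called in all 4 classes, with Irf7 at 4.49, 4.78, 6.53 and 5.23 on the log2 scale. Of 13 genes that limit NF-kappa B signalling or destroy chemokine mRNA, 6 of 10 were called higher in endothelial-like cells, with 1 lower (Zfp36l2), 6 of 13 in phagocyte-like, 7 of 10 in fibroblast-like and 1 of 13 in lymphoid-like cells. Tnfaip3, an inhibitor of NF-kappa B signalling, was called in all 4, and Nfkbia, which holds NF-kappa B in the cytoplasm, was higher by 2.52, 2.53 and 3.18 in endothelial-like, phagocyte-like and fibroblast-like cells. None of 4 class II antigen presentation genes was called in any class by edgeR, with 3 lower in phagocyte-like and 2 lower in fibroblast-like cells at an unadjusted p under 0.05.

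Markers of other cell types moved with some of these results. In endothelial-like sums, macrophage markers together had 185 CPM with LPS against 56.2 and 215 CPM, with 13 of 14 detected in LPS. In phagocyte-like sums, monocyte markers had 3601 CPM with LPS against 1119 and 524 CPM, and neutrophil markers 518 CPM against 19.4 and 22.5 CPM. In fibroblast-like sums, monocyte markers had 894 CPM with LPS against 158 and 371 CPM, and erythroid markers 6027 CPM against 604 and 311 CPM. Their part in the chemokine results was not tested. When UMIs expected from RNA free in the droplets were subtracted, taken per gene as the lowest level in any class of that library, no member was called in endothelial-like, phagocyte-like or lymphoid-like cells. Under that setting no gene of any kind was called in these classes, so the lost calls are not particular to the chemokines. The log2 fold change of Ccl2 in endothelial-like cells was then 9.22 (adjusted p = 0.436) and that of Ccl5 was 9.28 in endothelial-like cells (adjusted p = 0.436) and 10.42 in phagocyte-like cells (adjusted p = 0.0833, edgeR's quasi-likelihood test). In fibroblast-like cells Ccl2, Ccl5 and Ccl7 stayed called, and Ccl8 and Ccl11 did not.

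For each member, the genes most alike over the 12 sums were ranked by Pearson's r of log2(CPM + 1) among 9262 genes, as a description, since the sums share libraries and depth, and 8 members are given here. Ccl9 was most like Cybb (r = 0.99), a subunit of the phagocyte oxidase. Ccl11 was most like Pcsk6 (0.99) and Ebf2, and Ccl7 most like the acute phase gene Saa3 (0.95). Ccl2 was most like Lrg1 (0.94), Sod2 and Cxcl9, and Ccl5 most like Tnfrsf9 (0.94). Ccl8 was most like Gpnmb (0.93), Ccl3 most like Lilr4b (0.88) and Ccl4 most like Junb (0.83). Among the members, Ccl3 with Ccl4 and Ccl6 with Ccl9 had r = 0.91, and Ccl2 with Ccl7 and Ccl7 with Ccl8 had r = 0.82.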

How the data were processed

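Single-cell 3' RNA libraries (10x v3 kit) of 1 LPS and 2 control pools were analysed, each sample being 1 library. The deposited matrices hold whole UMI counts per gene and barcode; the submitters' processing notes name Cell Ranger 3.1, R 4.2.1, Seurat 4.2.0 and mm10, without their order. From these counts, barcodes under 500 UMIs or 300 genes, or above 15% mitochondrial UMIs, were removed and the rest clustered without the 9 chemokines (scanpy 1.11.5, leidenalg 0.10.2). Classes were named from marker lists; the naming thresholds were set after seeing the data. A doublet caller marked 6 of 8284 barcodes, which were removed. It had not worked, so other doublets may remain.

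Counts were summed per class and library and tested with edgeR 4.0.16 (TMM scaling, quasi-likelihood test, Benjamini-Hochberg threshold 0.05) in R 4.3.3, and were checked on simulated data. Library depth is given with the report; levels are CPM of the class sum with exact 95% Poisson intervals, and shares of barcodes were compared after thinning to 1000 UMIs. A value against 0 counts uses a floor of 3 UMIs. Alternatives were RLE size factors, no low-count filter, DESeq2 1.42.0, classes by a marker gate, a mitochondrial limit of 30%, free RNA subtracted, each control left out, and, added after seeing the data, the barcodes richest in each member left out (those with at least 5 UMIs of it). The text names all 9 members; other genes come from whole lists. The gene most like Ccl6 is not reported here. Members and lists were chosen with earlier results of these data known.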

Additional observations from a re-analysis of the deposited data

Results flagged for a closer look

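The difference of the LPS response between classes, tested as an interaction, singled out 7 values on the log2 scale. Ccl2 differed by 5.07 between endothelial-like and phagocyte-like cells and by 8.18 between endothelial-like and lymphoid-like cells. Ccl6 differed by -5.65 between endothelial-like and lymphoid-like cells. Between phagocyte-like and lymphoid-like cells, Ccl3 differed by -7.94, Ccl4 by -7.21, Ccl6 by -4.57 and Ccl5 by 6.41.

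Barcodes that the filters removed, 844 with LPS against 840 and 2120 in the controls, also held chemokine UMIs above the control level. Ccl2 stood at 50.8 CPM with LPS against 0 and 2.69 CPM, Ccl5 at 224 CPM against 0 and 8.07 CPM, Ccl7 at 29.5 CPM against 0.324 and 1.18 CPM, and Ccl9 at 19.5 CPM against 0.648 and 10.1 CPM. Which cells these barcodes came from was not tested.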

How the results depend on the processing

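No paired analysis was possible because there is 1 LPS library, so the groups share fewer than 2 replicate numbers, and these numbers follow the order of the records and pair nothing. Over the alternatives, 250 values of single members kept direction and side of the threshold, 50 lost the call and 14 changed sign, 5 of them without the richest barcodes. Leaving out a control leaves no residual degree of freedom within a class, so those are values only: 32 stayed, 33 moved and 2 changed sign. The comparison of phagocyte-like barcodes inside and outside the gate that includes Lyve1 was not run, for want of barcodes.

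Genes called, LPS against control, numbered 1139 in endothelial-like cells (292 with DESeq2, 1806 with the mitochondrial limit of 30%, 0 with free RNA subtracted), 552 in phagocyte-like cells (97, 332 and 0 under the same 3 settings), 725 in fibroblast-like cells (116 with DESeq2, 82 with free RNA subtracted) and 83 in lymphoid-like cells (892 with no filter, 147 with DESeq2, 18 with the marker gate, 2 with the limit of 30%, 0 with free RNA subtracted). Members called were 3 in endothelial-like cells (0 with free RNA subtracted), 3 in phagocyte-like cells (1 with DESeq2, 0 with free RNA subtracted), 5 in fibroblast-like cells (3 under each of these) and 4 in lymphoid-like cells (0 with the gate, with the limit of 30%, with free RNA subtracted and without the richest barcodes). Member differences between classes in the LPS library numbered 13 (5 with DESeq2), and interactions 7 (1 with DESeq2, 3 with the gate, 3 with free RNA subtracted, 2 without the richest barcodes). The cause of these moves was not tested.

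In phagocyte-like cells Ccl3 was -1.73 with the gate (adjusted p = 0.0447, edgeR) and -0.83 without the richest barcodes, Ccl6 was 0.11 with no filter, 0.0497 with DESeq2 and 0.31 with the gate, and Ccl9 was -0.73 with the gate. The lymphoid-like differences in the LPS library were -5.16 for Ccl3 and -6.64 for Ccl6 with the gate, and -6.25, -0.69 and -1.26 for Ccl3, Ccl4 and Ccl6 without the richest barcodes. The Ccl6 interaction was 9.74 between endothelial-like and lymphoid-like cells and 5.37 between phagocyte-like and lymphoid-like cells with the gate, and that of Ccl3 between phagocyte-like and lymphoid-like cells was 1.41 without the richest barcodes. With either control left out, the control phagocyte-like difference ranged over -0.43 to 4.69 for Ccl2 and -0.43 to 6.18 for Ccl4. Depth limits control 1 most: 0 UMIs in its phagocyte-like cells allows up to 14.5 CPM and in its fibroblast-like cells up to 43.2 CPM.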
